A study of Homo sapiens with 6 samples.

Results

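The genes described here build the respiratory chain and the ribosome of mitochondria, measured by RNA sequencing in 12Z cells, a human cell line of endometriotic epithelium. They were chosen by symbol in GENCODE release 29: nuclear subunits of complexes I to IV, proteins of the mitochondrial ribosome with MRPL or MRPS symbols, and the protein-coding genes of the mitochondrial genome. Of 58336 genes in the files, 141 are members, 128 of them nuclear and 13 mitochondrially encoded. The siBRG1 group holds 3 libraries of cells transfected with 50 nM siRNA against SMARCA4, the gene of the ATPase BRG1 that drives SWI/SNF chromatin remodellers. The control group holds 3 libraries of 12Z cells given a non-targeting siRNA under the same written protocol. Per the labels, medium was renewed at 24 h, serum was lowered to 0.5% from 48 h, and RNA was taken 72 h after transfection. The labels describe all 3 control libraries as reanalysed from an earlier deposit and none of the siBRG1 libraries, and therefore the group and any batch effect cannot be told apart in any comparison. The labels do not say whether replicates came from separate cultures. The p-values reflect only how far these libraries scatter, which may be technical.

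The respiratory chain passes electrons from NADH and succinate to oxygen and pumps protons across the inner mitochondrial membrane, and ATP synthase uses the proton gradient. Complexes I, III and IV and ATP synthase join subunits encoded in the nucleus with subunits encoded in mitochondrial DNA, while complex II is wholly nuclear. The mitochondrial proteins are made on mitochondrial ribosomes, whose proteins are imported and whose RNAs are encoded in the organelle. NRF1 and the ETS factor GABPA are textbook activators of the nuclear genes in both groups.

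Promoters are shown because nuclear members share known activators. RefSeq promoter windows on GRCh38.p14, 250 bases before to 50 bases after the start site, were matched for 109 of the 141 members. The NRF1 letters GCGCATGCG, searched on both strands, were found in 8 of these 109 windows (7.34%), against 2.34% of all 27305 gene promoters of the same length. The ETS letters CCGGAAGT were found in 18 members (16.5%), against 4.95% of all, and the YY1 letters AAGATGGCG in 19 members (17.4%), against 2.14% of all. A match is a description of these windows and not a bound site. The YY1 letters contain ATG, and whether their matches lie at the start of a reading frame was not tested. The windows of MRPL17, which rose, and of SDHD, which was not called, are printed 5′ to 3′ in the gene's direction, with the letters of the NRF1 motif on either strand and, in SDHD, of the ETS motif read from the other strand in capitals.
MRPL17 promoter, chr11:6683291-6683590, minus strand: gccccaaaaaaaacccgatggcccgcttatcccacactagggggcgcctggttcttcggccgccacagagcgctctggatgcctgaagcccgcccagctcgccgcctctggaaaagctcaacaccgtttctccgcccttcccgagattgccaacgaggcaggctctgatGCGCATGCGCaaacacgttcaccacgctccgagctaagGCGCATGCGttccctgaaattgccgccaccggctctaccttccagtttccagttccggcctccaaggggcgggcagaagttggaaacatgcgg
SDHD promoter, chr11:112086623-112086922, plus strand: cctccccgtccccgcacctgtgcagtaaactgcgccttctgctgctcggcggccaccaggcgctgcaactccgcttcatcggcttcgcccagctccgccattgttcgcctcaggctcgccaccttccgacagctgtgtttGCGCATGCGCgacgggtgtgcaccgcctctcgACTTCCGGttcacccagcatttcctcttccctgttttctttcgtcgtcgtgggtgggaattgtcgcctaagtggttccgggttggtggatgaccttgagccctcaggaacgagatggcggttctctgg
The MRPL17 window held the NRF1 letters at 2 places that do not overlap. At the first of them, and in SDHD, a match on each strand overlapped the other, so the capitals run to 1 letter more than the motif. Of the 8 members with NRF1 letters, 5 were higher, 1 was lower and 2 were not called in siBRG1 cells, and their median log2 fold change was 0.35. The 18 members with ETS letters had 8 higher, 5 lower and 5 not called, with a median of 0.06. The 19 with YY1 letters had 9 higher, 9 lower and 1 not called, with a median of -0.12. Of all 128 nuclear members 62.5% were higher and 25.8% lower, against 36.1% and 36.5% of all genes tested. Differences by motif were not tested.

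SMARCA4, the targeted gene, had 60.5, 78.9 and 50.6 counts per 1000000 (CPM) in the siBRG1 libraries, against 244, 266 and 262 CPM in the control libraries. Its level was 4.07-fold higher in control (log2 fold change -2.03 with SE 0.161, adjusted p = 0.000267). CPM are counts over the library total after trimmed-mean (TMM) normalisation. Counts assigned to genes numbered 12391161 to 13369692 in siBRG1 libraries and 40228678 to 49720320 in control libraries. Reads that met no annotated exon on the counted strand took 3.85% to 4.20% of reads in siBRG1 libraries and 12.8% to 13.6% in control libraries. Whether they lay in introns, opposite genes or between genes was not tested. The 6 epithelial markers summed to 3476 to 3733 CPM in siBRG1 libraries and 3935 to 4020 CPM in control libraries. Of them 3 were higher and 2 lower, with log2 fold changes between -2.40 for the keratin KRT7 and 2.63 for the adhesion protein EPCAM, and the abundant keratins KRT8 and KRT18 at 0.09 and -0.05. The 6 stromal or mesenchymal markers summed to 5893 to 6317 CPM in siBRG1 libraries and 4601 to 4853 CPM in control libraries. Of them 4 were higher, 3 past 2-fold, and 2 lower, between -0.39 for the intermediate filament VIM and 2.46 for the collagen COL3A1. The 5 immune markers summed to 9.76 to 10.5 CPM in siBRG1 libraries and 4.10 to 5.50 CPM in control libraries, most of it CD14, with CD3E at 0 in all 6. The 4 endothelial markers summed to 2.43 to 4.01 CPM in siBRG1 libraries and 2.43 to 2.96 CPM in control libraries.

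Nuclear members were mostly higher and mitochondrially encoded members mostly lower in siBRG1 cells. All 141 members passed the filter on low counts, and 81 were higher, 42 lower and 18 not called at an adjusted p under 0.05 in edgeR's quasi-likelihood test. Among all 15830 genes tested 72.6% were called, 36.1% higher and 36.5% lower. Of the 128 nuclear members 80 were higher (62.5%), 33 were lower and 15 were not called, with a median log2 fold change of 0.26 against -0.01 over all genes tested. Protein-coding genes alone had 40.4% higher and a median of 0.05. Of the 13 mitochondrially encoded members 1 was higher, 9 were lower and 3 were not called, with a median of -0.68. With trends of fold change on GC content and exon length removed, 3 were higher and 4 lower, with a median of -0.27. All 3 siBRG1 libraries stood above all 3 control libraries in CPM for 83 members and below them for 43, where 36.7% of all genes stood above and 37.6% below. Changes were mostly small: past 2-fold, 5 members were higher (10.4% of all genes) and 12 were lower (11.1% of all genes). In bulk RNA, fewer cells of a type and less RNA per cell cannot be told apart.

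**Figure D1:**
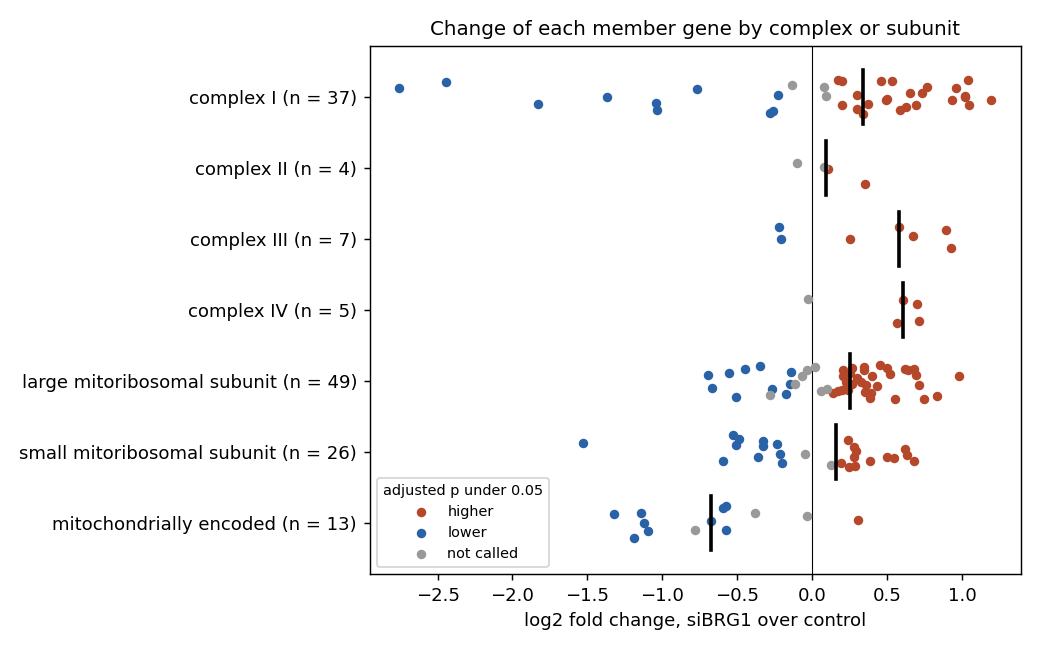
Log2 fold change of each of the 141 members, siBRG1 over control, by complex or subunit, with the median as a bar and the call as colour. Medians lie right of 0 for all 6 nuclear groups, from 0.09 for complex II to 0.61 for complex IV, and left of 0 for the 13 mitochondrially encoded genes.

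Complex I, NADH dehydrogenase, has a peripheral arm that oxidises NADH and a membrane arm that pumps protons. Of its 37 nuclear members 24 were higher, 10 lower and 3 not called, with a median log2 fold change of 0.34. NDUFA2, NDUFB7 and NDUFS4, all accessory subunits, rose most. NDUFA2 had 120.5, 128 and 120.2 CPM in siBRG1 libraries, against 51.9, 55.0 and 54.6 CPM in control libraries. That is a 2.29-fold difference (log2 fold change 1.19 with SE 0.0480, adjusted p = 9.44e-19), with no overlap between the groups. NDUFB7 had 93.5, 99.7 and 95.6 CPM in siBRG1 libraries, against 42.0, 50.7 and 47.1 CPM in control libraries (log2 fold change 1.05 with SE 0.0584, adjusted p = 1.56e-15). NDUFS4, whose loss in humans causes Leigh syndrome, had 106, 115 and 104 CPM in siBRG1 libraries, against 54.8, 52.6 and 51.2 CPM in control libraries (log2 fold change 1.04 with SE 0.0506, adjusted p = 7.73e-17). In each of these genes the lowest siBRG1 library stood well above the highest control library.

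The NDUFB subunits, all of the membrane arm, had 10 of 11 members higher and 1 lower, with a median log2 fold change of 0.59. Of the 13 NDUFA members 7 were higher, 4 lower and 2 not called, with a median of 0.20. NDUFA4, counted with complex I here by its symbol, was among those higher (log2 fold change 0.93 with SE 0.0433). It is now counted as a subunit of complex IV. The 7 nuclear core subunits, which carry the flavin and iron-sulfur clusters or the quinone site, had 4 higher and 2 lower, with a median of 0.20, and the 30 accessory subunits had 20 higher and 8 lower, with a median of 0.42. NDUFV1, the core subunit that binds NADH and FMN, was higher (log2 fold change 0.73 with SE 0.0426). These family contrasts were not tested against each other.

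The largest falls in complex I were in thinly covered genes. NDUFV2, a core subunit with an iron-sulfur cluster, had 0.947, 0.157 and 0.471 CPM in siBRG1 libraries, against 3.19, 2.75 and 2.81 CPM in control libraries (log2 fold change -2.44 with SE 0.334, adjusted p = 2.04e-07). NDUFA13, an accessory subunit also known as GRIM-19, had 0.656, 0.549 and 0.863 CPM in siBRG1 libraries, against 2.33, 2.70 and 2.36 CPM in control libraries (log2 fold change -1.83 with SE 0.294, adjusted p = 2.98e-06). NDUFB8, the lower member of the NDUFB family, had 3.06, 3.21 and 4.08 CPM in siBRG1 libraries, against 9.68, 8.92 and 8.06 CPM in control libraries (log2 fold change -1.37 with SE 0.153, adjusted p = 4.87e-09). The groups did not overlap in any of the 3 genes, but each shares exon bases with another gene, as described below.

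Complex II, succinate dehydrogenase, had the smallest median change of the 6 nuclear groups. Of its 4 members 2 were higher and 2 were not called, with a median log2 fold change of 0.09. SDHC, a membrane anchor, had 89.3, 97.5 and 93.2 CPM in siBRG1 libraries, against 72.5, 74.3 and 72.0 CPM in control libraries (log2 fold change 0.36 with SE 0.0480, adjusted p = 1.69e-07). SDHB, the iron-sulfur subunit, had 107, 109 and 104 CPM in siBRG1 libraries, against 99.2, 99.6 and 97.9 CPM in control libraries (log2 fold change 0.11 with SE 0.0441, adjusted p = 0.0287). The SDHB call was lost once the GC and length trends were taken out (adjusted p = 0.0820), and also with most libraries left out: without siBRG1 replicate 2 its adjusted p was 0.0796, and without control replicates 1, 2 and 3 in turn it was 0.0889, 0.101 and 0.149. SDHA, the flavoprotein, which can share reads with its pseudogenes, had 172, 199 and 164 CPM in siBRG1 libraries, against 171, 167 and 168 CPM in control libraries (adjusted p = 0.145, but 0.0147 without siBRG1 replicate 3 and 0.0439 once those trends were taken out). SDHD, the other anchor, had 61.3, 48.8 and 66.0 CPM in siBRG1 libraries, against 64.8, 60.3 and 63.5 CPM in control libraries (adjusted p = 0.205, and 0.0173 without siBRG1 replicate 3). In SDHA and SDHD the groups overlapped.

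Complex III, which passes electrons from ubiquinol to cytochrome c, had 5 of 7 members higher and 2 lower, with a median log2 fold change of 0.58. UQCRC1, a core protein on the matrix side, had 192, 199 and 184 CPM in siBRG1 libraries, against 102, 102 and 99.2 CPM in control libraries (log2 fold change 0.93 with SE 0.0417, adjusted p = 1.27e-17). Its partner UQCRC2 went the other way, with 69.5, 65.6 and 69.1 CPM in siBRG1 libraries, against 78.9, 79.2 and 79.7 CPM in control libraries (log2 fold change -0.22 with SE 0.0488, adjusted p = 0.000232). Neither pair of groups overlapped. UQCRQ and UQCRB, small subunits, were higher by log2 fold changes of 0.89 (SE 0.0454) and 0.67 (SE 0.0394). CYC1, the haem-bearing cytochrome c1, was higher by 0.58 (SE 0.0464) and the hinge protein UQCRH by 0.25 (SE 0.0431). The Rieske iron-sulfur protein UQCRFS1 had 121, 132 and 138 CPM in siBRG1 libraries, against 146, 155 and 149 CPM in control libraries (log2 fold change -0.20 with SE 0.0463, adjusted p = 0.000276).

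Complex IV, cytochrome c oxidase, had 4 of 5 nuclear members higher and none lower, with a median log2 fold change of 0.61. COX7C had 291, 322 and 327 CPM in siBRG1 libraries, against 200.1, 185 and 189 CPM in control libraries (log2 fold change 0.71 with SE 0.0433, adjusted p = 1.14e-14). COX5B, COX6C and COX4I1 were higher by log2 fold changes of 0.70 (SE 0.0480), 0.61 (SE 0.0460) and 0.56 (SE 0.0429). COX5A, which sits on the matrix side next to COX4I1, had 87.3, 88.0 and 80.1 CPM in siBRG1 libraries, against 89.4, 85.0 and 86.1 CPM in control libraries (adjusted p = 0.611). Its groups overlapped, while those of the other 4 did not. Of 8 further subunits of complexes I, III and IV with other symbols, 5 were higher and 1 was lower, with COX7B of complex IV at 0.91 (SE 0.0440) and UQCR11 of complex III at -0.30 (SE 0.102). Of 18 nuclear genes of ATP synthase and its inhibitor, 12 were higher and 2 lower, with a median of 0.25. Among them ATP5MG, a subunit of the membrane part, was higher (log2 fold change 0.84 with SE 0.0400), and ATP5IF1, the inhibitory factor, was lower (log2 fold change -0.26 with SE 0.0727).

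The large subunit of the mitochondrial ribosome, which forms peptide bonds, had 32 of 49 members higher, 10 lower and 7 not called, with a median log2 fold change of 0.25. MRPL54 had 54.1, 50.3 and 52.9 CPM in siBRG1 libraries, against 28.0, 25.6 and 26.1 CPM in control libraries (log2 fold change 0.98 with SE 0.0625, adjusted p = 3.42e-14). MRPL11, a protein of the stalk base where elongation factors bind, had 113, 121 and 127 CPM in siBRG1 libraries, against 70.2, 65.6 and 66.4 CPM in control libraries (log2 fold change 0.83 with SE 0.0493, adjusted p = 6.76e-15). MRPL17, whose promoter is printed above, had 117, 133 and 121 CPM in siBRG1 libraries, against 71.3, 75.0 and 74.8 CPM in control libraries (log2 fold change 0.75 with SE 0.0492, adjusted p = 6.48e-14). All 3 stood clear of control in every siBRG1 library. MRPL19 was the lowest of the large-subunit members that share no exon bases, with 71.5, 70.4 and 75.4 CPM in siBRG1 libraries, against 111, 102 and 106 CPM in control libraries (log2 fold change -0.55 with SE 0.0488, adjusted p = 4.27e-11). MRPL46 had a log2 fold change of -0.67 (SE 0.124) at 5.80 to 7.29 CPM in siBRG1 libraries and 9.74 to 10.7 CPM in control libraries. MRPL38 had 2.62, 0.627 and 1.96 CPM in siBRG1 libraries, against 2.70, 2.40 and 3.43 CPM in control libraries (log2 fold change -0.69 with SE 0.284, adjusted p = 0.0304), with overlapping groups. Its adjusted p was 0.284 without siBRG1 replicate 2, 0.0512 without control replicate 1 and 0.122 without control replicate 3.

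The small subunit, which reads the messenger RNA, was more evenly divided, with 13 of 26 members higher, 11 lower and 2 not called, and a median log2 fold change of 0.16. MRPS21 had 56.8, 53.4 and 55.1 CPM in siBRG1 libraries, against 33.7, 34.8 and 34.6 CPM in control libraries (log2 fold change 0.68 with SE 0.0574, adjusted p = 1.54e-11). MRPS33 had 38.8, 41.2 and 44.1 CPM in siBRG1 libraries, against 27.4, 25.6 and 27.5 CPM in control libraries (log2 fold change 0.62 with SE 0.0666, adjusted p = 2.29e-09). MRPS2 had 58.9, 56.1 and 60.5 CPM in siBRG1 libraries, against 86.4, 88.9 and 90.6 CPM in control libraries (log2 fold change -0.60 with SE 0.0504, adjusted p = 1.61e-11). These 3 genes share no exon bases, and their groups did not overlap. MRPS24, with 0.729 to 0.941 CPM in siBRG1 libraries and 2.12 to 2.51 CPM in control libraries, had the largest fall (log2 fold change -1.53 with SE 0.283). MRPS17 was lower, at a log2 fold change of -0.53 (SE 0.147), and MRPS28 was higher by 0.63 (SE 0.176) at 4.23 to 4.88 CPM in siBRG1 libraries and 2.61 to 3.06 CPM in control libraries. Of 8 further mitoribosomal proteins with other symbols 4 were higher and 1 was lower, with CHCHD1 at 0.54 (SE 0.0566) and PTCD3 at -0.24 (SE 0.0480).

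Falls of nuclear members gathered in genes whose exons overlap another gene on the same strand. Counting with STAR leaves out reads in exons of more than 1 gene, so such a gene is measured only over its own bases. Of the 31 nuclear members with a shared exon base 10 were higher, 17 lower and 4 not called, with a median log2 fold change of -0.27, and they include all 7 nuclear members that fell past 2-fold. Of the 97 with none 70 were higher (72.2%), 16 lower and 11 not called, with a median of 0.30, and 5 rose and 0 fell past 2-fold. The split into these groups was made after the values were seen. It was not made over all genes tested, of which 36.1% were higher and 36.5% lower with or without shared bases. Shared bases made up 28.4% of the exons of NDUFV2, 21.0% of NDUFA13, 33.8% of NDUFB8, 23.2% of MRPS24 and 37.5% of MRPL38. Of the 10 nuclear members that averaged under 10 CPM in control, 8 were lower and 1 was higher. They include NDUFV2, NDUFA13, NDUFB8, MRPS24 and MRPL38, so low level and shared bases were not told apart. A split by level was not made over all genes tested either. Complex I members without shared bases had 20 of 24 higher and 2 lower, with a median of 0.49. Ambiguous reads made up 3.08% to 3.14% of reads in siBRG1 libraries and 4.13% to 4.18% in control libraries, and their part in the falls was not tested.

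**Figure D2:**
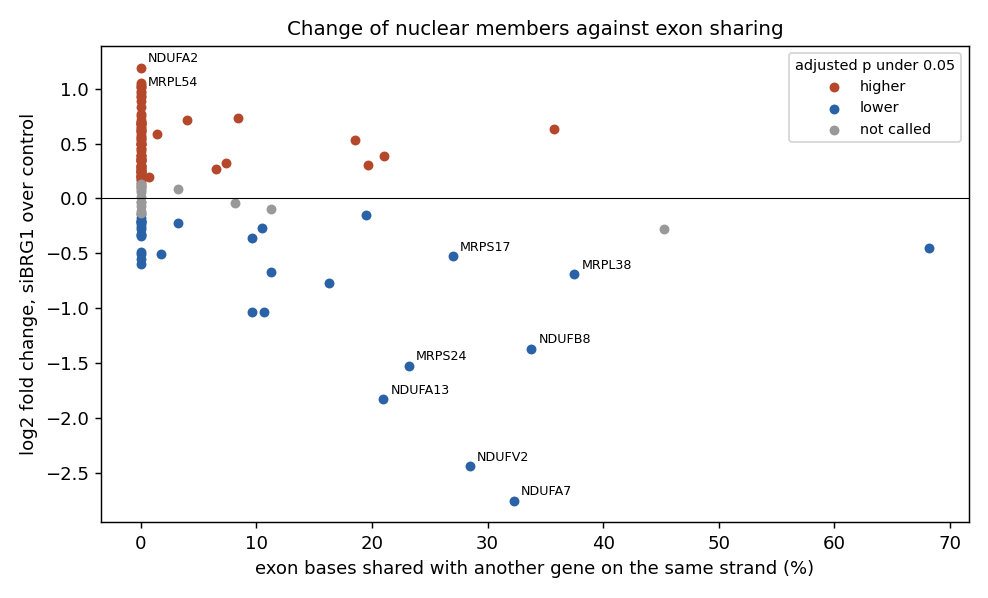
Log2 fold change of the 128 nuclear members, siBRG1 over control, against the percent of exon bases shared with another gene on the same strand, with the call as colour. The members with the lowest fold changes, from -2.76 for NDUFA7 to -1.37 for NDUFB8, all share exon bases, while those at 0% lie between -0.60 and 1.19.

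Of the 13 protein genes of the mitochondrial genome 9 were lower in siBRG1 cells, with 5 of them past 2-fold, and MT-ND3 alone was called higher. MT-ND2, a proton-pumping subunit of complex I, had 744, 613 and 534 CPM in siBRG1 libraries, against 1506, 1512 and 1705 CPM in control libraries. Its level was 2.50-fold higher in control (log2 fold change -1.32 with SE 0.147, adjusted p = 0.00116). MT-ND1, at the quinone site, had 772, 587 and 535 CPM in siBRG1 libraries, against 1367, 1321 and 1494 CPM in control libraries (log2 fold change -1.14 with SE 0.165, adjusted p = 0.00321). In both genes every siBRG1 library lay far below every control library. MT-ND5, the distal pump subunit, had 846, 691 and 625 CPM in siBRG1 libraries, against 1535, 1506 and 1666 CPM in control libraries (log2 fold change -1.12 with SE 0.129, adjusted p = 0.00105). MT-ND6, the protein gene on the opposite strand from the other 12, had 91.8, 80.1 and 45.8 CPM in siBRG1 libraries, against 177, 149 and 172 CPM in control libraries (log2 fold change -1.19 with SE 0.265, adjusted p = 0.0148). At MT-ND6 71.0% to 78.7% of stranded counts in siBRG1 libraries and 63.4% to 66.2% in control libraries lay on the other strand. MT-ND4 had 2350.5, 1954 and 1636 CPM in siBRG1 libraries, against 2898, 2857 and 3231 CPM in control libraries (log2 fold change -0.60 with SE 0.157, adjusted p = 0.0252). The MT-ND4 call was lost without siBRG1 replicate 2 (adjusted p = 0.0853) and without control replicates 1, 2 and 3 in turn (adjusted p = 0.0552, 0.0543 and 0.0676).

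Within ATP synthase, MT-ATP6, the proton channel subunit, had 727, 591 and 481 CPM in siBRG1 libraries, against 1258, 1307 and 1285 CPM in control libraries (log2 fold change -1.10 with SE 0.167, adjusted p = 0.00395). MT-ATP8, whose reading frame overlaps that of MT-ATP6, had 165, 124 and 79.1 CPM in siBRG1 libraries, against 219, 212 and 202 CPM in control libraries (log2 fold change -0.78 with SE 0.272, adjusted p = 0.0587). MT-ATP8 missed the threshold although its groups did not overlap, and its adjusted p was 0.0209 without siBRG1 replicate 1 and 0.0107 without siBRG1 replicate 3. The 3 catalytic-core subunits of complex IV were all lower, by log2 fold changes of -0.68 for MT-CO2 (SE 0.111, adjusted p = 0.00274), -0.58 for MT-CO3 (SE 0.0439, adjusted p = 1.7e-12) and -0.57 for MT-CO1 (SE 0.112, adjusted p = 0.0057). MT-CO1, the most abundant member by CPM, had 3440.0, 2929 and 2609.8 CPM in siBRG1 libraries, against 4449, 4206 and 4702 CPM in control libraries. Its adjusted p was 0.0526 without siBRG1 replicate 2. MT-CYB, the cytochrome b of complex III, had 1504, 1259 and 1053 CPM in siBRG1 libraries, against 1665, 1579 and 1731 CPM in control libraries (log2 fold change -0.38 with SE 0.148, adjusted p = 0.0762). Its adjusted p was 6.61e-08 without siBRG1 replicate 1 and 0.000533 without siBRG1 replicate 3.

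MT-ND3 was the exception, with 776, 779 and 739 CPM in siBRG1 libraries, against 641, 605 and 609 CPM in control libraries (log2 fold change 0.31 with SE 0.0377, adjusted p = 3.31e-08). Its neighbour in the genome, MT-ND4L, had 300.3, 245 and 197 CPM in siBRG1 libraries, against 284, 227 and 249 CPM in control libraries (log2 fold change -0.04 with SE 0.191, adjusted p = 0.881), with overlapping groups. The siBRG1 libraries also differed among themselves: replicate 1 was the highest of the 3 for 12 of the 13 genes and replicate 3 the lowest for all 13. The median coefficient of variation of these genes was 17.7% in siBRG1 and 5.45% in control, against 4.25% in siBRG1 and 2.43% in control over 4914 genes that averaged at least 50 CPM.

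**Figure D3:**
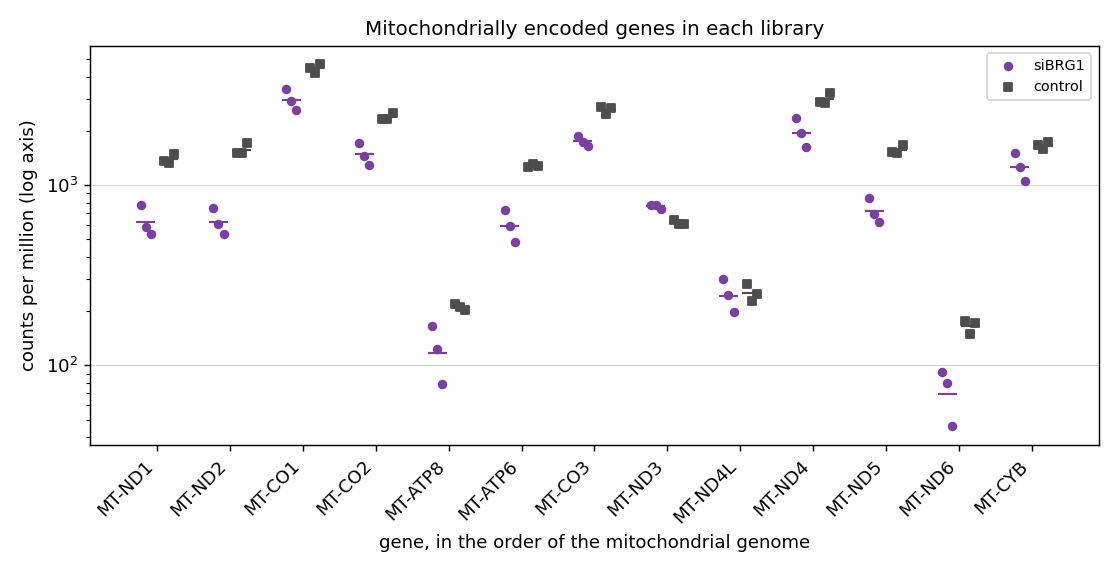
CPM on a log axis of the 13 mitochondrially encoded genes in each library, in genome order, siBRG1 as circles left of control as squares, with the geometric mean of the 3 libraries as a line. All siBRG1 points lie below all control points for 11 genes, above them for MT-ND3, and among them for MT-ND4L.

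As a share of all gene counts, mitochondrially encoded members took 1.57%, 1.33% and 1.18% in siBRG1 libraries, against 2.05%, 1.98% and 2.15% in control libraries. The means were 1.36% ± 0.197 in siBRG1 and 2.06% ± 0.0846 in control (SD, n = 3 each). Nuclear members took 0.989%, 1.03% and 1.04% in siBRG1 libraries, against 0.786%, 0.772% and 0.765% in control libraries. The groups did not overlap in either share, and the shares moved in opposite directions. On the log2 scale of CPM per kilobase of exon, mitochondrially encoded subunits of complex I exceeded nuclear ones by 5.65, 5.38 and 5.20 in siBRG1 libraries, against 6.21, 6.13 and 6.30 in control libraries. That excess was lower in siBRG1 by 0.80 in the mean, or by 1.26 without nuclear members that share exon bases. In complex III the excess averaged 4.46 ± 0.289 in siBRG1 and 5.27 ± 0.0691 in control, and in complex IV 4.90 ± 0.202 in siBRG1 and 6.02 ± 0.0573 in control (SD, n = 3 each). In all 3 complexes every siBRG1 library lay below every control library.

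The siBRG1 and control libraries also differed in other RNA classes. MT-RNR1 and MT-RNR2, the mitochondrial ribosomal RNAs, took 1.12%, 1.17% and 1.18% of gene counts in siBRG1 libraries, against 0.00335%, 0.00102% and 1.2e-05% in control libraries. The replication histone genes, 55 of which passed the filter and all of which were lower, took 0.0168%, 0.0160% and 0.0184% of gene counts in siBRG1 libraries, against 1.03%, 1.08% and 1.04% in control libraries. The largest fall by the naming rule was in HIST1H2AB, at 0 to 0.0784 CPM in siBRG1 libraries and 134 to 147 CPM in control libraries, followed by HIST1H4B. MT-TP, the mitochondrial proline transfer RNA, had 1.18 to 3.42 CPM in siBRG1 libraries and 7.52 to 9.55 CPM in control libraries (log2 fold change -2.11 with SE 0.222). Its direction turned on unstranded counts (1.21) and with GC and length trends removed (1.33). The labels state the same mRNA library kit for all samples, and the part of these differences in the values of the members was not tested.

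**Figure D4:**
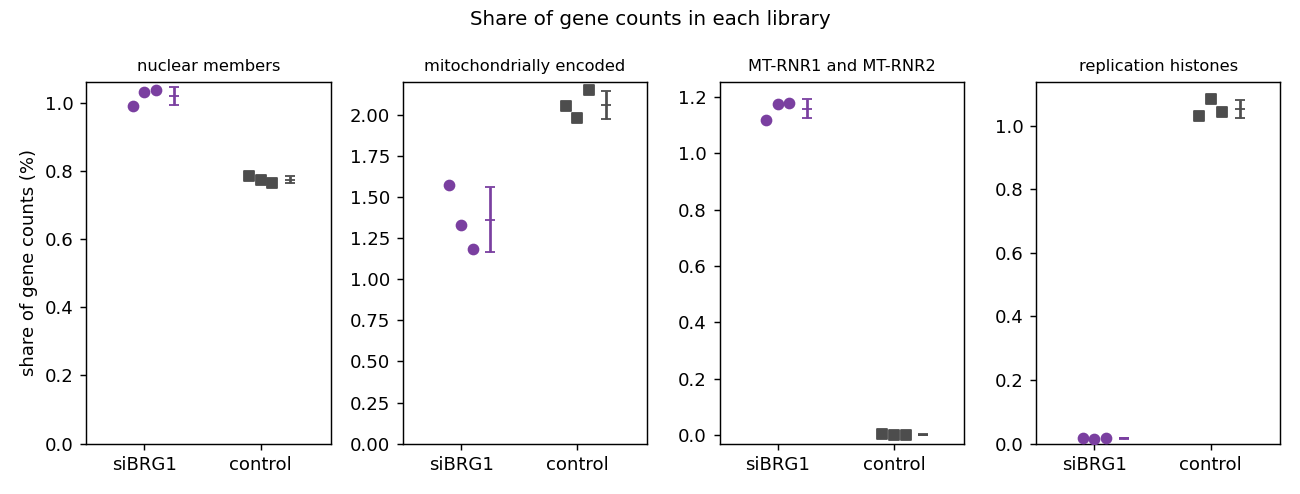
Share of gene counts in percent per library for nuclear members, mitochondrially encoded members, mitochondrial ribosomal RNAs and replication histones, siBRG1 left of control, with mean and SD of 3 libraries beside the points. Nuclear members and mitochondrial ribosomal RNAs are higher in siBRG1, and mitochondrially encoded members and histones are lower.

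Fold changes in these data varied with exon length and GC content. Protein-coding genes in the shortest sixth, 207 to 2760 bases of exon, had a median log2 fold change of 0.27, and those in the longest sixth -0.18. By GC content the lowest sixth had a median of -0.09 and the highest 0.29. The trends removed were fitted over all genes tested, not over protein-coding genes alone. Those include 55 replication histone genes, with a median exon length of 488 bases and a median log2 fold change of -7.08. No fit with the trends removed left these genes out, and their part in the shifts was not tested. With both trends removed the nuclear median stayed at 0.26, but the mitochondrial median was -0.27, with 3 members higher and 4 lower. MT-ND2, MT-ND5, MT-ND1 and MT-CO1 were still called lower, with adjusted p = 0.00508, 0.00272, 0.0139 and 0.0357. MT-ND6, MT-ATP6, MT-CO2, MT-CO3 and MT-ND4 were no longer called, with values of -0.27, -0.41, -0.01, -0.03 and -0.36. The direction of MT-ATP8 and MT-ND4L turned, to 1.14 (adjusted p = 0.0210) and 1.46 (adjusted p = 0.00233), and that of MT-ND3 stood at 1.64. These 3 genes are the shortest members, with exon lengths of 207, 297 and 346 bases. Among nuclear members 6 gained a call and 9 lost one, and none was called in opposite directions. In complexes II to IV, COX5A and SDHA gained a call, at 0.13 (adjusted p = 0.0160) and 0.11 (adjusted p = 0.0439), and SDHB lost its call, at 0.08 (adjusted p = 0.0820). The direction turned in 6 nuclear members, of which NDUFS8 (-0.11) and MRPL21 (-0.16) were then called lower, COX5A was then called higher, and NDUFS1 (0.0037) was no longer called.

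**Figure D5:**
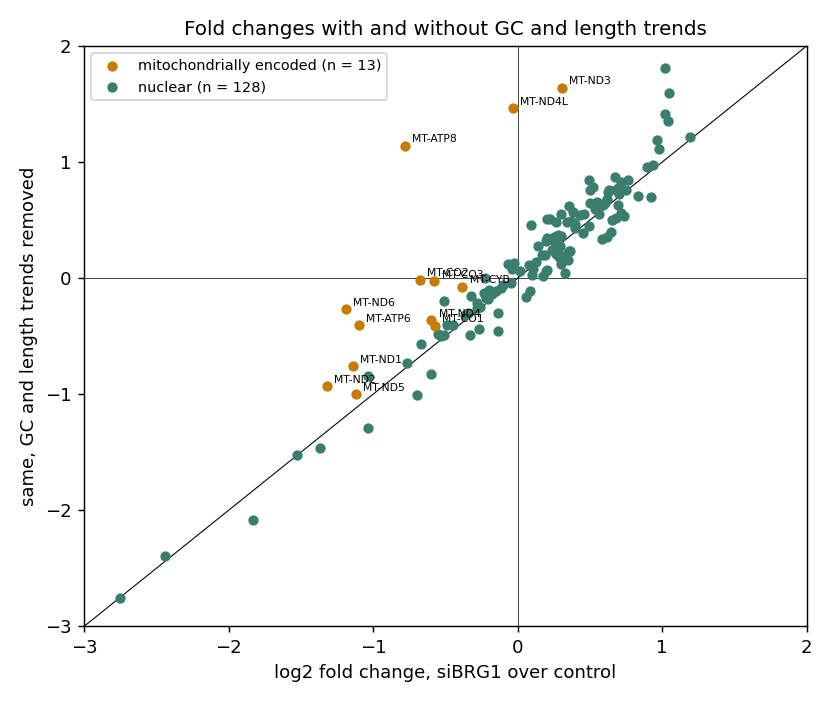
Log2 fold change of each member, siBRG1 over control, on the x axis and the same after removal of GC and length trends on the y axis, with the line of equal values. Nuclear members lie on both sides of the line, shifted by -0.32 to 0.79 with a median of 0.04, and the 13 mitochondrially encoded genes all lie above it, shifted by 0.12 to 1.92 with a median of 0.55.

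Genes that build and express the mitochondrial genome went both ways, as did all genes tested, of which 36.1% were higher and 36.5% lower. Of 21 genes of mitochondrial RNA processing and stability, 4 were higher (19.0%) and 15 were lower (71.4%), with a median log2 fold change of -0.29. MRM1, a methyltransferase of the 16S ribosomal RNA, had the largest fall among them at 0.627 to 1.57 CPM in siBRG1 libraries and 2.98 to 3.23 CPM in control libraries (log2 fold change -1.51 with SE 0.262). HSD17B10, a subunit of mitochondrial RNase P, rose (log2 fold change 0.63 with SE 0.0485). Of 15 genes of mitochondrial DNA maintenance and transcription 5 were higher (33.3%) and 6 lower (40.0%), near the shares over all genes. Among them were MGME1, an exonuclease, at 0.44 (SE 0.0522) and the transcription terminator MTERF1 at -0.67 (SE 0.0831). TFAM, which packages mitochondrial DNA and activates its promoters, had 127, 124 and 141 CPM in siBRG1 libraries, against 166, 159 and 164 CPM in control libraries (log2 fold change -0.32 with SE 0.0455, adjusted p = 3.81e-07). Its groups did not overlap. Of 10 mitochondrial translation factors 5 were higher (50.0%) and 4 lower (40.0%), with the elongation factor TSFM at 0.56 (SE 0.0786) and the release factor MTRF1L at -1.07 (SE 0.0829).

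Of 43 assembly factors tested 21 were higher (48.8%) and 14 lower (32.6%), with a median log2 fold change of 0.11. SDHAF4, which helps to assemble complex II, had 8.96, 9.17 and 6.98 CPM in siBRG1 libraries, against 2.22, 2.45 and 2.01 CPM in control libraries (log2 fold change 1.91 with SE 0.165, adjusted p = 2.58e-11). COX20, a chaperone of MT-CO2, was lower (log2 fold change -0.84 with SE 0.0712), and its adjusted p was 0.312 on unstranded counts. Of 11 regulators of mitochondrial biogenesis tested 3 were higher (27.3%) and 6 lower (54.5%). The coactivator PPARGC1B had 5.61, 5.25 and 4.39 CPM in siBRG1 libraries, against 11.2, 11.7 and 12.4 CPM in control libraries (log2 fold change -1.20 with SE 0.128, adjusted p = 1.86e-09), while PPARGC1A had 0 to 0.157 CPM in siBRG1 libraries and 0.0249 to 0.0824 CPM in control libraries and was not tested. NRF1 itself had 22.6, 22.9 and 25.0 CPM in siBRG1 libraries, against 19.4, 21.0 and 20.3 CPM in control libraries (log2 fold change 0.22 with SE 0.0784, adjusted p = 0.0151). Its adjusted p was 0.0788 without siBRG1 replicate 3, 0.0876 without control replicate 1 and 0.0522 without control replicate 3. The orphan receptor ESRRA was higher (log2 fold change 0.31 with SE 0.0955), a call that was lost when GC and length trends were taken out (0.02, adjusted p = 0.821), and GABPA was not called (adjusted p = 0.552).

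Proteins of the cytosolic ribosome, the counterpart outside mitochondria, also had more rises than falls: of 80 tested, 64 were higher (80.0%) and 12 lower, with a median log2 fold change of 0.37, against 45 higher (60.0%) and 21 lower of 75 mitoribosomal members, with a median of 0.24. The difference between the ribosomes was not tested. RPL39L was the largest rise among the cytosolic proteins (log2 fold change 1.31 with SE 0.0779), and RPL36A the largest fall (log2 fold change -2.00 with SE 0.149). Copies elsewhere in the genome can share reads with members, and reads that matched several places made up 18.5% to 21.5% in siBRG1 libraries and 9.57% to 10.0% in control libraries. Their part in the values of the members was not tested. Of 394 annotated nuclear copies of mitochondrial protein genes 5 passed the filter, among them MTCO3P12 at a log2 fold change of 2.42 (SE 0.158) and MTND2P28 at -0.75 (SE 0.0729), and of 184 annotated pseudogenes of nuclear members 9 did, with SDHAP1 at -0.81 (SE 0.0993). All nuclear copies together summed to 112 to 153 CPM in siBRG1 libraries and 198 to 203 CPM in control libraries.

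Per kilobase of exon the highest members were mitochondrially encoded. MT-CO3, MT-ND3 and MT-CO2 averaged 2237 ± 149, 2209.8 ± 64.3 and 2179 ± 314 CPM per kilobase in siBRG1, which lie within their spread of each other, against 3338 ± 152, 1788 ± 57.7 and 3485 ± 147 CPM per kilobase in control (SD, n = 3). Among nuclear members NDUFS5, an accessory subunit of complex I, stood highest at 371 ± 14.3 CPM per kilobase in siBRG1 and 183 ± 9.19 in control (SD, n = 3). Its log2 fold change was 1.02 (SE 0.0445). Counts on the opposite strand made up 4.50% ± 0.598 of stranded counts over the mitochondrially encoded members in siBRG1 and 4.75% ± 0.185 in control (SD, n = 3), a difference smaller than the spread. The authors' deposited table had 79 members higher and 45 lower, and among the 13 mitochondrially encoded genes 1 was higher and 11 lower at an adjusted p under 0.05. Fold changes from the counts exceeded those of the authors' deposited table by 0.02 to 0.06 on the log2 scale, and 1 member differed in sign.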

How the data were processed

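RNA was sequenced from 3 siBRG1 and 3 control libraries. The authors deposited raw counts per gene for each library in the layout that STAR writes, with unstranded, antisense and sense columns; the sense column, which had the larger total, was used. Build GRCh38.p12 and the tools STAR, DESeq2, cutadapt, FastQC and Trim Galore are named, per the submitters' processing notes, with no version given. The sources used here do not give the annotation release. Of 58336 identifiers 58216 matched GENCODE release 29 without their version. The authors' deposited table gives, per the file headers, a mean signal, log2 fold changes, a Wald score and p-values; its log2 values and p-values are printed where named, and its signal and score are not.

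Groups were compared over all genes with edgeR 4.0.16 (R 4.3.3; TMM normalisation, filterByExpr, robust quasi-likelihood, two-sided, Benjamini-Hochberg adjusted p under 0.05). The SE is the absolute log2 fold change over the square root of F. Reads that name no gene (unmapped 1.57% to 1.92%, several places 18.5% to 21.5% in siBRG1 and 9.57% to 10.0% in control, no feature 3.85% to 4.20% in siBRG1 and 12.8% to 13.6% in control, ambiguous 3.08% to 3.14% in siBRG1 and 4.13% to 4.18% in control) were left out. CPM per kilobase uses annotated exon length. Same-numbered libraries did not deviate together (correlations -0.01 to 0.02), so the numbers do not pair them. All 6 libraries were kept as separate, since counts of libraries within a group differed beyond sampling noise (a chi-square over its degrees of freedom of 2.71 to 4.80).

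The members and lists were chosen with earlier results of these data known. Named genes are SMARCA4, all members of complexes II to IV and of the mitochondrial genome, the 3 largest rises and falls of complex I and each ribosomal subunit (called, mean of at least 50 counts), up to 2 genes per further list, and TFAM, NRF1, GABPA and PPARGC1A. NDUFV1, NDUFA4, NDUFA7, NDUFS5, NDUFS1, NDUFS8, MRPL21 and the markers were named after their values were seen. Alternatives covered DESeq2 1.42.0, its size factors, count filters, strand, GC and length trends, protein-coding genes alone, thinned control counts, a replicate block and each library left out. One alternative, leaving out nuclear members that share exon bases, was added after seeing the data.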

Additional observations from a re-analysis of the deposited data

Results flagged for a closer look

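Counts on the strand opposite to a member were used above on their own only as shares for mitochondrially encoded members. They were searched for members where all 3 siBRG1 libraries exceeded all 3 control libraries, the siBRG1 mean was at least 2-fold higher, and the mean was at least 10 counts. This picked out 11 members, all nuclear, or 7.80% of the 141 members, against 3.53% of all 15830 genes tested. Among genes that averaged at least 10 counts on the opposite strand, the shares were 15.1% of 73 members and 8.73% of 6401 genes. All siBRG1 libraries stood above all control libraries in 31 of the 141 members and below them in 19, against 11.7% of all genes tested above and 17.9% below. Whether members differ from other genes in this was not tested. All 11 members picked out also rose on the sense strand, by log2 fold changes of 0.11 for SDHB to 1.02 for NDUFS5. Antisense counts were not scaled to the sense counts of each gene, and the link between them was not tested. MRPL34 had the highest antisense level at a mean of 5.82 CPM in siBRG1 and 2.91 CPM in control, and 13.2% of its exon bases face ABHD8 on the other strand. MRPL2 had 2.68 CPM in siBRG1 and 0.956 in control, and NDUFB3 1.95 in siBRG1 and 0.952 in control; both also face another gene, KLC4 and FAM126B. NDUFS5 had 1.83 CPM in siBRG1 and 0.682 in control with no annotated exon opposite its exons. NDUFB4 had 1.36 CPM in siBRG1 and 0.430 in control, UQCRC1 1.30 in siBRG1 and 0.468 in control, and COX5B 1.17 in siBRG1 and 0.230 in control, also with none opposite. NDUFV1 had 1.23 CPM in siBRG1 and 0.412 in control, MRPL11 0.971 in siBRG1 and 0.293 in control, MRPS11 0.767 in siBRG1 and 0.297 in control, and SDHB 0.637 in siBRG1 and 0.272 in control. NDUFV1, MRPL11 and MRPS11 face C11orf72, PELI3 and AC013489.3 over 4.09%, 4.69% and 9.17% of their exon bases, and the exons of SDHB face no annotated exon. The cause was not tested.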

How the results depend on the processing

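With GC and length trends removed, mitochondrially encoded members had 3 higher and 4 lower calls and a median log2 fold change of -0.27. With a replicate block added to that correction they had 2 higher and 2 lower and a median of -0.30. The nuclear median was 0.21 with no count filter, where the median of all genes was -0.30, and 0.31 on unstranded counts. Without members that share exon bases 16 nuclear members were lower. Among the genes chosen to be named, those that turned in direction and were called in either fit were MT-ATP8 (1.14), MT-ND4L (1.46), COX5A (0.13) and MT-TP (1.33) with the trends removed, MT-ND4L (1.45), COX5A (0.13) and MT-TP (1.31) with the block as well, and MT-TP on unstranded counts (1.21). Why these values moved was not tested. The replicate block alone, though the numbers do not pair the libraries, gave 81 members higher and 41 lower, 8 mitochondrially encoded members lower, and 11194 calls over all genes, and MT-ND6 lost its call (adjusted p = 0.0665). Leaving out each library in turn gave 10291 to 11692 calls over all genes, 78 to 83 members higher and 39 to 45 lower, 77 to 82 nuclear members higher and 29 to 34 lower, and 1 mitochondrially encoded member higher and 7 to 11 lower. Nuclear medians were 0.24 to 0.29, mitochondrial medians -0.79 to -0.55, and SMARCA4 log2 fold changes -2.21 to -1.89. The mitochondrial share differed by -0.80 to -0.61 percentage points, the mean log2 excess of mitochondrial over nuclear subunits by -1.04 to -0.81, and the antisense share by -0.50 to 0.08 points. Depth limits members under 10 CPM, since siBRG1 libraries held fewer counts.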
